A study of Mus musculus with 8 samples.

Results

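The genes described here encode the phototransduction machinery and the outer segment of rod photoreceptors, the cells that detect dim light. They were taken as the rows of a retinal gene count table whose symbol stood in a list of 37 rod genes. Of these, 36 were found among 16109 genes, and all 36 passed the expression filter that left 15850 genes for testing. Prcd, a small protein of the outer segment disc, had no row of its own. Its older symbol Gm11744, paired with it by RefSeq, did, and that row is given apart and is not counted among the 36 rod genes.

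Messenger RNA was sequenced from retinas of C57BL/6 mice at postnatal day 5, with 4 libraries labelled C3 KO and 4 labelled WT. Both groups were retinas from which the embryonic hyaloid vessels had been dissected away, and the labels name no treatment. C3 KO stands for a knockout of complement component C3, on which the complement pathways converge, and the series compares the genotypes while the retinal vessels grow. How many animals a library holds, and how the knockout allele was made, is not stated in the labels, so p-values measure the spread between these libraries, which may be technical.

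The labels carried a limit that touches every direction below. The libraries labelled C3 KO held 1419 to 1718 C3 reads, and those labelled WT held 33 to 55, the reverse of what the names say. Xist, which coats the silenced X chromosome, stood at 1.48 to 2.65 CPM under the C3 KO label and at 294.98 to 2441 CPM under the WT label. The mean of 4 Y-linked genes was 74.8 to 88.2 CPM under the C3 KO label and 0.448 to 75.8 CPM under the WT label, where WT replicate 3 alone was over 5.05 CPM. Sex-linked expression and the label could therefore not be told apart in 7 of the 8 libraries. The remaining library, WT replicate 3, held Xist at 294.98 CPM beside its Y-linked reads, so it does not separate sex from label cleanly. Total counts ran from 16503564 to 19608824 reads, and no pair of libraries of a label agreed within sampling noise (chi-square per degree of freedom at least 3.72). Every rod gene had at least 55 reads in each library. CPM are counts scaled to a common library total after TMM normalization, and fold changes are those of the C3 KO label over the WT label.

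In a rod, light activates the visual pigment, which switches on the G protein transducin. Transducin releases phosphodiesterase from its inhibitory subunit, cyclic GMP falls, and the cation channels held open by cyclic GMP close. Kinase, arrestin and a GTPase-accelerating complex end the response, and guanylate cyclase restores cyclic GMP under the control of calcium sensors. In the mouse, rods are still being born and are immature in the days after birth, and the stacked discs of the outer segment have yet to form.

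Rod genes were slightly lower under the C3 KO label. A log2 fold change below 0 was found for 35 of the 36 genes (97.2%), against 49.1% of all genes tested, and the median was −0.16 for the rod genes and 0.0044 for all genes. At an edgeR adjusted p below 0.05, 9 rod genes were called lower, which is 25% of them, where 5.98% of all genes tested were called lower. These were Gnat1, Rdh12, Rp1l1, Impg1, Rom1, Impg2, Tulp1, Prph2 and Unc119, and they differed by 1.11-fold to 1.32-fold. None was called higher, against 8.33% of all genes, and none had a positive fold change at an unadjusted p below 0.05 by edgeR, while DESeq2 and limma-voom also called none higher. These are whole retinas, so fewer rods, less RNA per rod and a changed share of other cells cannot be told apart. How much of the RNA of each listed gene came from rods was not measured.

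For nearly all rod genes the libraries of both labels overlapped. The groups did not overlap for 1 rod gene, Rdh12, or 2.78% of the 36, where 7.72% of all genes had all 4 libraries labelled C3 KO below all 4 labelled WT. The opposite order was found for no rod gene and for 9.65% of all genes. The number of rod genes called lower moved with each library left out. Leaving out C3 KO replicate 1, 2, 3 or 4 gave 2, 18, 3 and 3 calls, and leaving out WT replicate 1, 2, 3 or 4 gave 3, 2, 4 and 14. Gnat1 and Rdh12 were among the calls in all 8 of these fits. With the Y-linked expression of each library as a covariate no rod gene was called by edgeR, where 1.14% of all genes were called lower, and the median log2 fold change was −0.12. At an unadjusted p below 0.05 that fit had 5 rod genes lower (13.9%) and 7.59% of all genes, while the fit without a covariate had 18 rod genes lower (50%) and 13.3% of all genes.

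**Figure D1:**
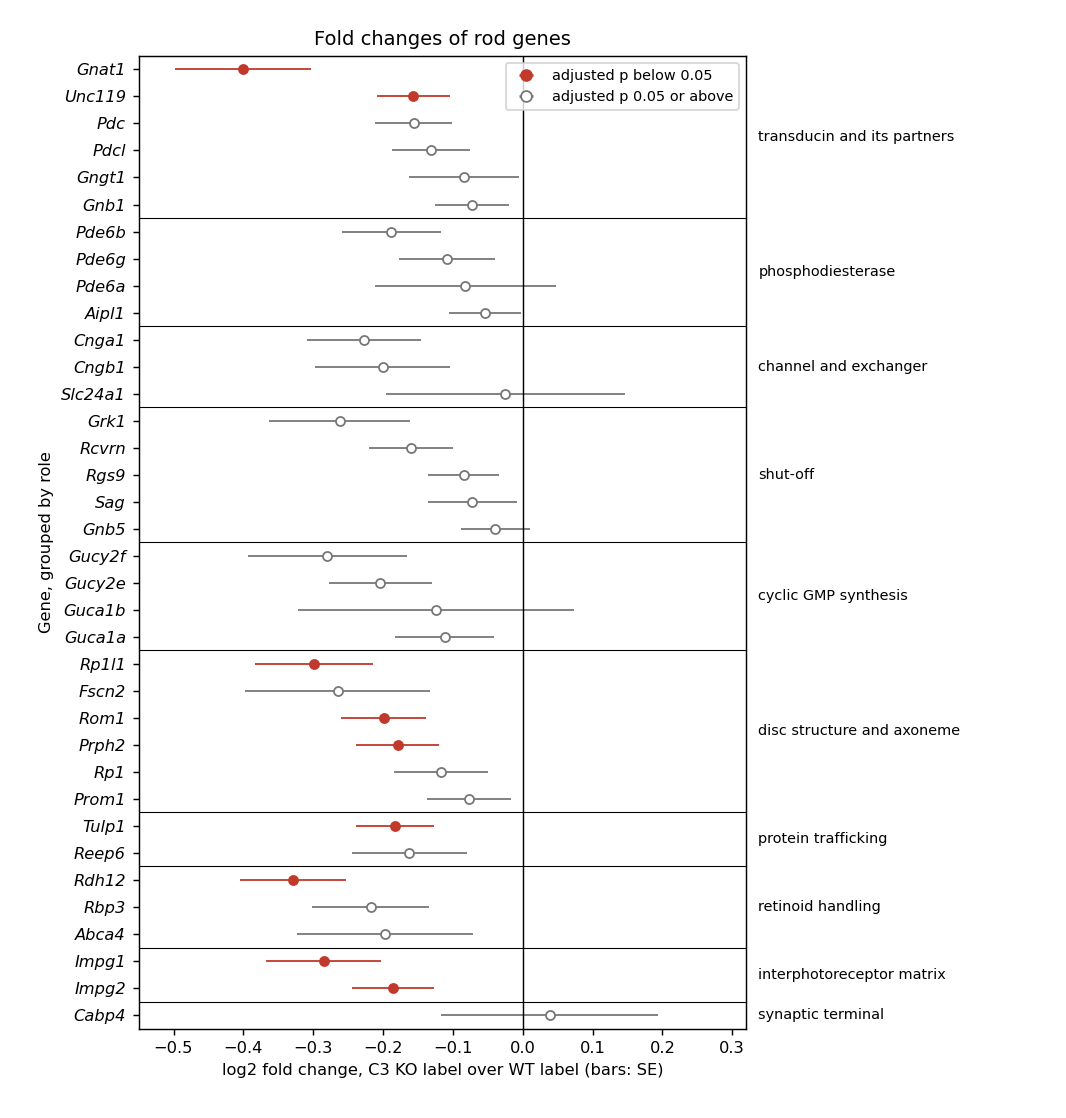
Log2 fold change of each of the 36 rod genes, C3 KO label over WT label, with its SE as a bar, grouped by role. Filled points passed an edgeR adjusted p below 0.05. All points but Cabp4 lie below 0, and the 9 filled points run from −0.40 for Gnat1 to −0.16 for Unc119.

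Many rod genes had their highest and lowest values in the same libraries. As a summary, log2 CPM was averaged over the 36 genes after each gene was centred on its mean under the WT label. This average was −0.25, −0.019, −0.28 and −0.11 in C3 KO replicates 1 to 4, against 0.055, 0.12, −0.030 and −0.14 in WT replicates 1 to 4. WT replicate 4 thus lay below C3 KO replicates 2 and 4, and the groups overlapped. Of the 36 genes, 27 had their lowest value of all 8 libraries in C3 KO replicate 3, and 24 had their highest in WT replicate 2. Within the C3 KO label replicate 2 was the highest for 24 genes, and within the WT label replicate 4 was the lowest for 30. How often these libraries held the extremes over all genes tested was not counted. Together the 36 genes took 1.505% to 1.80% of all reads under the C3 KO label and 1.70% to 1.98% under the WT label.

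**Figure D2:**
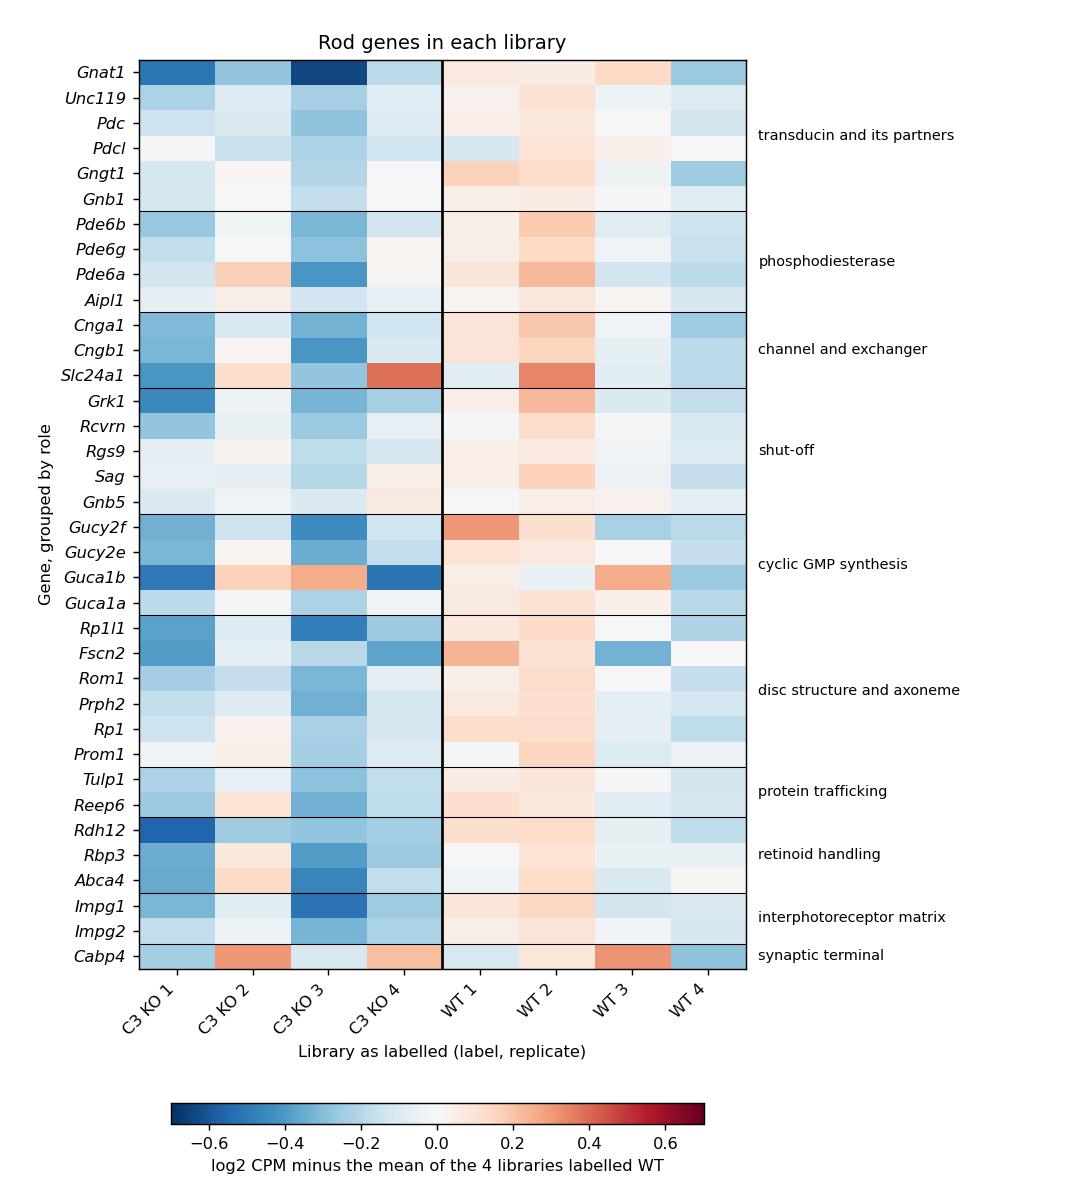
Log2 CPM of each rod gene (rows, grouped by role) in each library (columns, by label and replicate), minus the gene's mean over the 4 libraries labelled WT. Blue is lower and red is higher. C3 KO replicates 1 and 3 are blue in most rows, WT replicate 2 is red in most, and C3 KO replicate 2 is close to the WT mean in many.

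Levels per gene length could be compared between genes from the authors' deposited log2 RPKM values. Averaged over the 8 libraries, these ran from 0.41 for Slc24a1 to 10.38 for Pdc. Pdc, Gnb1, Rom1, Rbp3, Prph2 and Unc119 held the top 6 places, in that order. Gnat1 stood at rank 29, while its transducin partners Gnb1 and Gngt1 stood at ranks 2 and 14. The lowest log2 RPKM values belonged to Gucy2f, Guca1b and Slc24a1, at 1.16, 0.83 and 0.41. The 9 genes called lower were spread from rank 3 to rank 29. Among the listed genes only, and in whole retina, phosducin and disc rim proteins thus ranked high per gene length. The exchanger, a calcium sensor and the second cyclase ranked lowest.

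**Figure D3:**
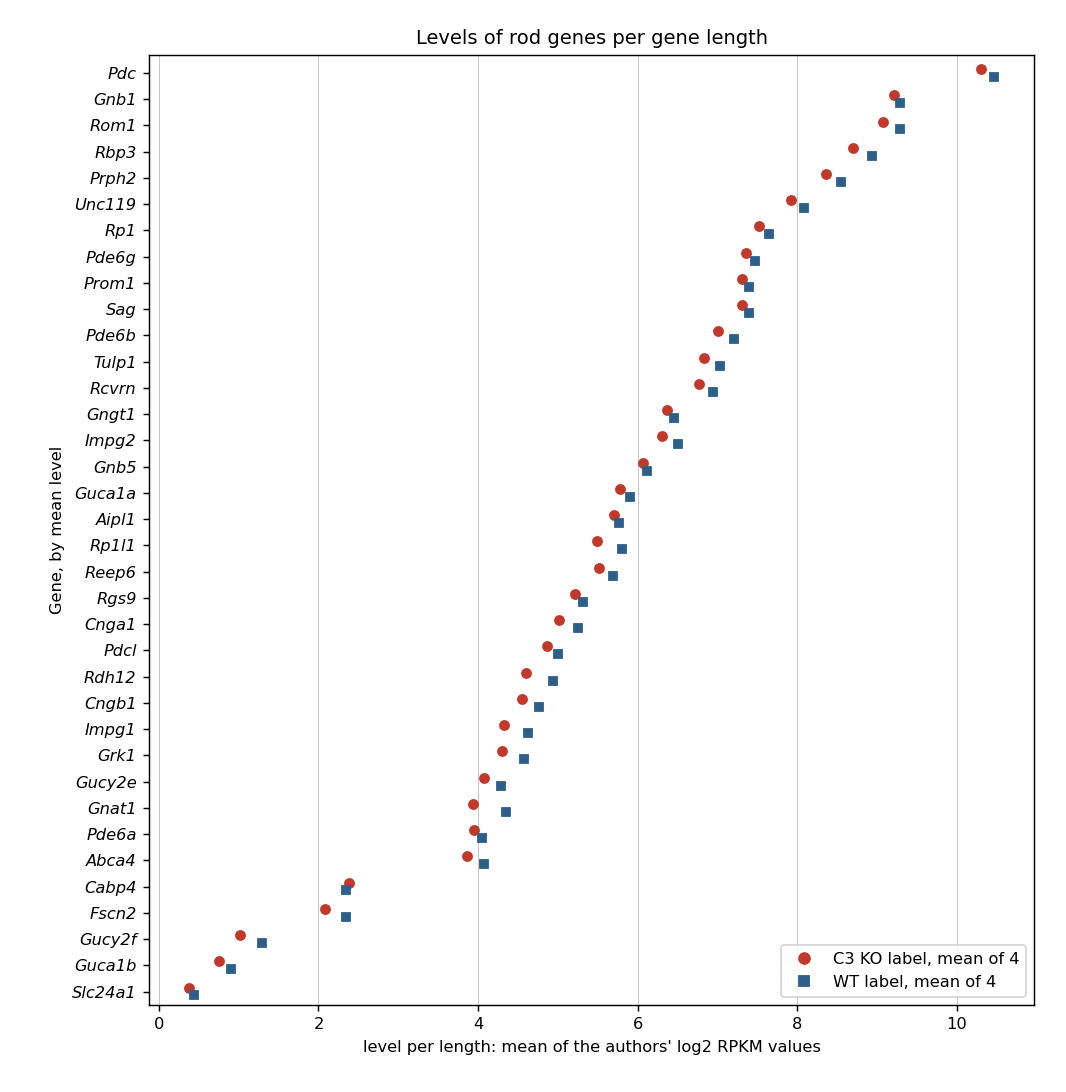
Mean of the authors' log2 RPKM values of each rod gene, a level per gene length, for the 4 libraries of the C3 KO label (circles) and the 4 of the WT label (squares). Genes are ordered by their mean over all libraries, from Pdc at 10.38 to Slc24a1 at 0.41, and the distance between the labels is small beside the range of levels.

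The promoters of these genes were examined for letters that 2 photoreceptor transcription factors are known to bind, since many of the genes were high or low in the same libraries. Crx, a homeodomain protein of photoreceptors, binds the core TAATCC, and Nrl, the leucine zipper protein that specifies rods, binds sites holding TGCTGA. RefSeq windows of 300 bases, from 250 before to 50 after the start site in GRCm38.p6, were matched by symbol for 28 of the 37 listed genes. TAATCC was found on either strand for 13 of these 28 genes (46.4%), against 8.14% of 27025 genes with a window of the same length. TGCTGA was found for 8 of 28 (28.6%), against 21.7%. In 10 rod genes (35.7%) a TAATCC began between 100 and 1 bases before the start site, against 2.78% of all genes, a span chosen after the positions were seen. Some genes had more than 1 window, and a gene was counted if any of its windows held the motif. Among 7 matched genes called lower, 1 held TAATCC and 2 held TGCTGA. Unc119 held both, each in a different window, and Gnat1 and Rp1l1 had no window. Among 20 matched genes not called, 11 held TAATCC and 6 held TGCTGA. Prcd, matched by symbol but without a row of its own, held TAATCC and is in neither group. A match describes letters in the window and is not evidence of binding. The windows of 5 genes follow, 5′ to 3′ on the strand of the gene, with both motifs in capitals on either strand. Rdh12 and Rom1 stand for the called genes. Cngb1, Rbp3 and Sag show TAATCC at 58, 69 and 87 bases before the start site, that of Rbp3 and Sag lying on the opposite strand as GGATTA.
Rdh12 (chr12:79208663-79208962, plus strand): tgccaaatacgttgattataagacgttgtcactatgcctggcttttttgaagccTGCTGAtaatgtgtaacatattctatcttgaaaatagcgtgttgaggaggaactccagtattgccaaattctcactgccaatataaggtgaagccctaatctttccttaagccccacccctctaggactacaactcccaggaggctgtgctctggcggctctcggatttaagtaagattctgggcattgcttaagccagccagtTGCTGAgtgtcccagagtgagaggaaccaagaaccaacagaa
Rom1 (chr19:8929307-8929606, minus strand): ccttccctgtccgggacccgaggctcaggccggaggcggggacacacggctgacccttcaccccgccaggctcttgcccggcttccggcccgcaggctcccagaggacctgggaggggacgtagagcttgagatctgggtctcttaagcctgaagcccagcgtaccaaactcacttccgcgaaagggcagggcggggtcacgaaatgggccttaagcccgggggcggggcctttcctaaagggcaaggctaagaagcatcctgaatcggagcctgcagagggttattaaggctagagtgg
Cngb1 (chr8:95306536-95306835, minus strand): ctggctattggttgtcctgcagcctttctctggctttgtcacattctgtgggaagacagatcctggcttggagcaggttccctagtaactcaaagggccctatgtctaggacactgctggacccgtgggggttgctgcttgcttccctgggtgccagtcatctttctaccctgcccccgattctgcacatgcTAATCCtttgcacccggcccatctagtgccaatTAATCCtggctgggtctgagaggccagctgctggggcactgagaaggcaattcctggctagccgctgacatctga
Rbp3 (chr14:33953753-33954052, plus strand): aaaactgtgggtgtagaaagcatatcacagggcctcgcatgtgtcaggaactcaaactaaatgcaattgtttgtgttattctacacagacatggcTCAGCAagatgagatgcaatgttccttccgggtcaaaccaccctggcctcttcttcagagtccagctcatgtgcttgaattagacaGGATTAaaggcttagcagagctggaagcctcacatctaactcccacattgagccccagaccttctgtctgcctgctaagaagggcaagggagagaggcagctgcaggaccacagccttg
Sag (chr1:87803430-87803729, plus strand): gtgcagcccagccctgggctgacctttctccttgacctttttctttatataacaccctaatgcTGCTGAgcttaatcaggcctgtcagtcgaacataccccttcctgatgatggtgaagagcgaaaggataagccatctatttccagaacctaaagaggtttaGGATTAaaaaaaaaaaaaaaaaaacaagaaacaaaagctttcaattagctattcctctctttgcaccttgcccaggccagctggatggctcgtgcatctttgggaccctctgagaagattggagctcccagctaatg

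Transducin and its partners included the call with the lowest fold change. Gnat1, the alpha subunit of rod transducin, had 31.3, 36.7, 28.6 and 39.1 CPM in C3 KO replicates 1 to 4, against 46.6, 46.2, 49.0 and 37.2 CPM in WT replicates 1 to 4. WT replicate 4 was the only library of its label to fall among the C3 KO values, below C3 KO replicate 4. The log2 fold change was −0.40 ± 0.10 (SE) with an edgeR adjusted p = 0.00992. The call held without each library in turn, with adjusted p-values from 0.0012 to 0.0387, and was lost with a covariate. With Y-linked expression as the covariate the log2 fold change was −0.46 (adjusted p = 0.0854), and with 1 surrogate variable it was also −0.46 (adjusted p = 0.0778), no smaller than without. The beta subunit Gnb1, which many cell types also use, averaged 1863 ± 109 CPM under the C3 KO label and 1959 ± 85.5 CPM under the WT label (SD, n = 4 each). The gamma subunit Gngt1 averaged 291 ± 20.6 CPM under the C3 KO label and 308 ± 38.9 CPM under the WT label (SD, n = 4 each). Neither passed the test, with edgeR adjusted p-values of 0.397 and 0.537, so that of the transducin trimer only the alpha subunit was called. Whether Gnat1 differed from its partners was not tested.

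Unc119, a lipid-binding chaperone that carries the transducin alpha subunit back to the outer segment, had 569, 622, 565 and 625 CPM in C3 KO replicates 1 to 4, against 677, 711, 646 and 621 CPM in WT replicates 1 to 4. WT replicate 4 again lay within the C3 KO values. Its log2 fold change was −0.16 ± 0.052 (SE) with an edgeR adjusted p = 0.0473. That call held without C3 KO replicate 2 or WT replicate 4 and was lost without any other library, with adjusted p-values from 0.0518 to 0.138, with upper-quartile scaling (0.0539) and without robust dispersion (0.0552). Pdc, phosducin, which binds the beta and gamma subunits, had the highest mean log2 RPKM of the listed genes. It stood at 1573 ± 93.6 CPM under the C3 KO label and 1753 ± 108 CPM under the WT label (SD, n = 4 each). It missed the threshold at an edgeR adjusted p = 0.0616, with a log2 fold change of −0.16, and was called by DESeq2, by limma-voom, and by edgeR without the filter on low counts (adjusted p = 0.0471), without C3 KO replicate 2 (0.0430) or without WT replicate 4 (0.0207). Its relative Pdcl, which helps to fold beta subunits in many tissues, was at −0.13 (edgeR adjusted p = 0.121) and was called without WT replicate 1 (adjusted p = 0.0405).

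None of the 4 phosphodiesterase genes was called by edgeR, which for so few genes lies close to the 5.98% of all genes called lower. At an unadjusted p below 0.05, 1 of the 4, Pde6b, was lower, against 13.3% of all genes. DESeq2 called Pde6b lower and no other gene of the enzyme, and limma-voom called none. By edgeR, Pde6b was called without C3 KO replicate 2 (adjusted p = 0.0206) or WT replicate 4 (0.0387). The catalytic subunits Pde6a and Pde6b had log2 fold changes of −0.082 ± 0.13 and −0.19 ± 0.071 (SE), with edgeR adjusted p-values of 0.737 and 0.0872. Pde6b ran from 593 to 724 CPM under the C3 KO label and from 670 to 840 CPM under the WT label. Pde6a stood far lower, at 56.0 to 83.4 CPM under the C3 KO label and 65.6 to 87.2 CPM under the WT label. The inhibitory subunit Pde6g had a log2 fold change of −0.11, and Aipl1, the chaperone that phosphodiesterase needs to assemble, −0.054. Per gene length the subunits were unequal, with mean log2 RPKM values of 4.00 for Pde6a, 7.11 for Pde6b and 7.41 for Pde6g. Aipl1 varied little between libraries, from 156 to 175 CPM under the C3 KO label and from 157 to 180 CPM under the WT label.

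The cyclic GMP-gated channel is built from Cnga1 and Cngb1, and the exchanger Slc24a1 removes the calcium that enters through it. Cnga1 had 137 to 161 CPM under the C3 KO label and 145 to 197 CPM under the WT label, which gave −0.23 ± 0.082 on the log2 scale (SE, edgeR adjusted p = 0.0816). Cngb1 followed at −0.20 ± 0.097 (SE, edgeR adjusted p = 0.199). Cnga1 was called by DESeq2, and by edgeR without WT replicate 4 (adjusted p = 0.00268) or without robust dispersion (0.0464). Cngb1 was called without C3 KO replicate 2 (adjusted p = 0.0344). Both channel subunits were lowest in C3 KO replicate 3 and highest in WT replicate 2. Slc24a1, at 5.19 to 9.09 CPM under the C3 KO label and 6.10 to 8.79 CPM under the WT label, had a log2 fold change of −0.025 ± 0.17 (SE). Its sign changed when C3 KO replicate 1 (0.090), C3 KO replicate 3 (0.048) or WT replicate 2 (0.093) was left out.

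None of the 5 genes that end the light response was called by edgeR. For so few genes that lies close to the 5.98% of all genes called lower. At an unadjusted p below 0.05, 2 of the 5 were lower, against 13.3% of all genes. Grk1, the kinase that phosphorylates the activated visual pigment, had 129, 172, 141 and 150 CPM in C3 KO replicates 1 to 4, against 182, 207, 164 and 157 CPM in WT replicates 1 to 4. WT replicates 3 and 4 lay below the highest C3 KO value. The log2 fold change was −0.26 ± 0.10 (SE) with an edgeR adjusted p = 0.117. Grk1 was called by DESeq2, by limma-voom, and by edgeR without robust dispersion (adjusted p = 0.0369) or without C3 KO replicate 2 (0.0127). Rcvrn, the calcium sensor that restrains Grk1, was at −0.16 with an edgeR adjusted p = 0.0801, and was called without C3 KO replicate 2 (0.0334) or WT replicate 4 (0.0400). Sag, rod arrestin, which binds the phosphorylated pigment, averaged 1419 ± 98.3 CPM under the C3 KO label and 1492 ± 143 CPM under the WT label (SD, n = 4 each), a log2 fold change of −0.073. Rgs9 and Gnb5, partners in the complex that speeds the shut-off of transducin, had log2 fold changes of −0.085 and −0.039. Gnb5 is also made by many neurons. Of its annotated exon bases 7.96% are shared with an antisense gene on the opposite strand, and whether counting kept their reads apart is not stated.

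Of the cyclic GMP synthesis genes none of 4 was called by edgeR, again close to the 5.98% of all genes called lower for so few genes. At an unadjusted p below 0.05, 2 of the 4 were lower, against 13.3% of all genes. DESeq2 called Gucy2e lower and limma-voom called none. By edgeR, Gucy2e was called without C3 KO replicate 2 (adjusted p = 0.00386) or WT replicate 4 (0.0285). The guanylate cyclases Gucy2e and Gucy2f had log2 fold changes of −0.20 ± 0.074 and −0.28 ± 0.11 (SE), with edgeR adjusted p-values of 0.0813 and 0.105. Gucy2e ran from 141 to 180 CPM under the C3 KO label and from 159 to 191 CPM under the WT label. Gucy2f, which lies on the X chromosome, had 15.6, 17.9, 14.6 and 17.96 CPM in C3 KO replicates 1 to 4, against 24.4, 21.4, 16.9 and 17.3 CPM in WT replicates 1 to 4. WT replicates 3 and 4 overlapped the C3 KO values. With Y-linked expression as a covariate its log2 fold change was 0.0082. The calcium sensors of the cyclases, Guca1a and Guca1b, had log2 fold changes of −0.11 and −0.12, and Guca1b rested on 640 reads over all libraries, the fewest of any rod gene.

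Disc structure and axoneme genes held 3 of the 9 calls among 6 measured genes, where 5.98% of all genes tested were called lower. Whether the roles differed in their share of calls was not tested. Rp1l1, a microtubule-binding protein of the photoreceptor axoneme, had 328, 399, 305 and 356 CPM in C3 KO replicates 1 to 4, against 448, 466, 425 and 368 CPM in WT replicates 1 to 4. WT replicates 1, 2 and 3 lay above all C3 KO values, and WT replicate 4 lay within them. Its log2 fold change was −0.30 ± 0.084 (SE) with an edgeR adjusted p = 0.0329. The call held without C3 KO replicate 2, C3 KO replicate 3 or WT replicate 4. It was lost without C3 KO replicate 1 or 4 or WT replicate 1, 2 or 3, with adjusted p-values from 0.0554 to 0.0890. Rp1, its partner on the axoneme, had a log2 fold change of −0.12 and an edgeR adjusted p = 0.265.

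Rom1 and Prph2 are tetraspanins that together shape the rims of the discs. Rom1 had 805, 845, 759 and 906 CPM in C3 KO replicates 1 to 4, against 971, 1036, 952 and 846 CPM in WT replicates 1 to 4. Prph2 had 998, 1052, 889 and 1030 CPM in C3 KO replicates 1 to 4, against 1176, 1214, 1070 and 1034 CPM in WT replicates 1 to 4. For both genes WT replicate 4 lay within the C3 KO range and the other WT libraries lay above it. The log2 fold change of Rom1 was −0.20 ± 0.061 (SE, edgeR adjusted p = 0.0320), and that of Prph2 was −0.18 ± 0.059 (SE, edgeR adjusted p = 0.0464). Rom1 lost its call without C3 KO replicate 1 or 3 or WT replicate 1, 2 or 3, with adjusted p-values from 0.0523 to 0.104. Prph2 lost its call without C3 KO replicate 1, 3 or 4 or WT replicate 1 or 2, with adjusted p-values from 0.0681 to 0.165, with upper-quartile scaling (0.0546) and without robust dispersion (0.0564). The other disc genes did not pass. Fscn2, an actin-bundling protein of photoreceptors, was at −0.26 ± 0.13 (SE, edgeR adjusted p = 0.188) at 8.05 to 10.2 CPM under the C3 KO label and 8.399 to 12.5 CPM under the WT label. Prom1, a membrane protein at the base of the outer segment that immature cells also make, was at −0.076 (edgeR adjusted p = 0.436), and 5.91% of its annotated exon bases are shared with an antisense gene. The row Gm11744, the older symbol of Prcd, was at −0.072 (edgeR adjusted p = 0.577).

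**Figure D4:**
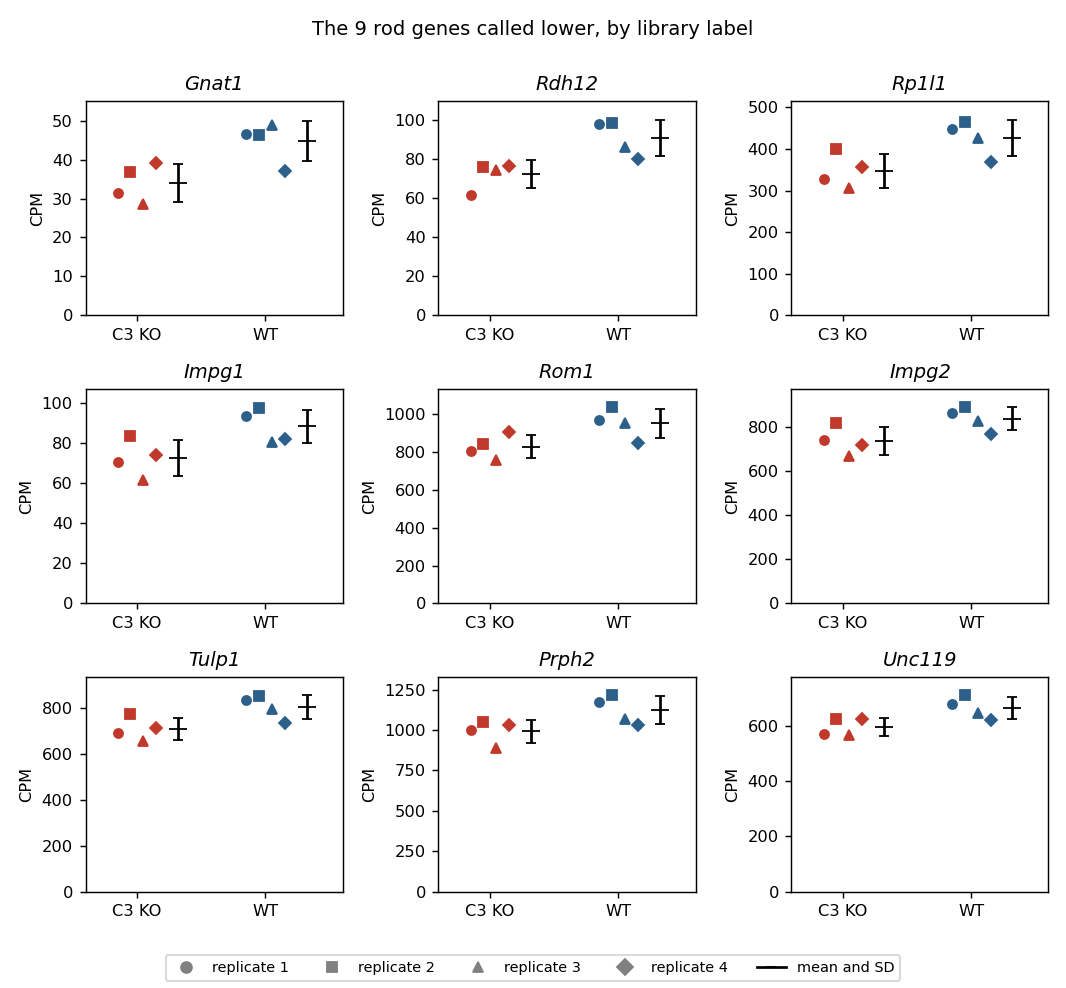
CPM in each library for the 9 rod genes called lower, with the C3 KO label left of the WT label in each panel, one marker shape per replicate number, and the mean with its SD (n = 4) in black. The vertical axes start at 0. WT replicate 4 (diamond) is the lowest of its label in 8 of the panels, and the labels do not overlap for Rdh12.

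Tulp1, a tubby-like protein needed to move proteins from the inner to the outer segment, was called and Reep6, an endoplasmic reticulum protein of rods, was not. Tulp1 had 693, 772, 658 and 713 CPM in C3 KO replicates 1 to 4, against 833, 854, 797 and 736 CPM in WT replicates 1 to 4. Only C3 KO replicate 2 and WT replicate 4 crossed. The log2 fold change was −0.18 ± 0.056 (SE) with an edgeR adjusted p = 0.0288. The call held without C3 KO replicate 2 or WT replicate 4 and was lost without any other library, with adjusted p-values from 0.0506 to 0.107. Reep6 was at −0.16 ± 0.083 (SE, edgeR adjusted p = 0.214), with 138 CPM in C3 KO replicate 2 and 102 to 114 CPM in the other libraries of that label. Without C3 KO replicate 2 it was −0.26 with an adjusted p = 0.00668.

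Among the retinoid genes, Rdh12 was the rod gene with the smallest adjusted p. It encodes a retinol dehydrogenase of the inner segment that reduces retinal released by bleached pigment. Rdh12 had 61.5, 76.0, 74.6 and 76.6 CPM in C3 KO replicates 1 to 4, against 97.7, 98.5, 86.3 and 79.7 CPM in WT replicates 1 to 4. All C3 KO values lay below all WT values, the nearest being C3 KO replicate 4 and WT replicate 4. The log2 fold change was −0.33 ± 0.076 (SE) with an edgeR adjusted p = 0.00731. The call held without each library in turn, with adjusted p-values from 0.0012 to 0.0188, and with 1 surrogate variable as a covariate. With Y-linked expression as a covariate the log2 fold change was −0.24 and the call was lost (adjusted p = 0.258).

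The remaining retinoid genes were not called. Rbp3, the retinoid-binding protein of the space between photoreceptors and pigment epithelium, had 2012, 2702, 1958 and 2153 CPM in C3 KO replicates 1 to 4, against 2569, 2744, 2483 and 2469 CPM in WT replicates 1 to 4. Apart from C3 KO replicate 2, every C3 KO library lay below every WT library. Rbp3 was at −0.22 ± 0.084 (SE) with an edgeR adjusted p = 0.103 and was called by limma-voom. Without C3 KO replicate 2 it was −0.33 with an adjusted p = 0.00035. Abca4, the transporter that flips retinal adducts across the disc membrane, showed the same library, at 219 CPM in C3 KO replicate 2 against 144 to 177 CPM in the other libraries of that label. Its log2 fold change was −0.20 ± 0.13 (SE) with an edgeR adjusted p = 0.359, and without C3 KO replicate 2 it was −0.33 with an adjusted p = 0.0025.

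Both genes of the interphotoreceptor matrix, the gel around the outer segments, were called lower, as were 5.98% of all genes tested. Impg1, one of its core proteoglycans, had 70.7, 83.8, 61.7 and 74.1 CPM in C3 KO replicates 1 to 4, against 93.5, 97.3, 80.7 and 82.2 CPM in WT replicates 1 to 4. Impg2, the membrane-bound relative, had 744, 819, 670 and 718 CPM in C3 KO replicates 1 to 4, against 866, 892, 828 and 772 CPM in WT replicates 1 to 4. For both genes C3 KO replicate 2 was the only C3 KO library within the WT range. The log2 fold changes were −0.29 ± 0.082 for Impg1 (SE, edgeR adjusted p = 0.0280) and −0.19 ± 0.058 for Impg2 (SE, edgeR adjusted p = 0.0354). Impg1 lost its call without C3 KO replicate 1, 3 or 4 or WT replicate 1 or 2, with adjusted p-values from 0.0571 to 0.0857. Impg2 kept its call without C3 KO replicate 2 or WT replicate 4 and lost it without any other library, with adjusted p-values from 0.0595 to 0.134. At the synaptic terminal, Cabp4, a calcium-binding protein that tunes the calcium channel of the rod synapse, was the one rod gene above 0, at 0.038 ± 0.16 (SE, edgeR adjusted p = 0.902). Its sign changed without C3 KO replicate 2 (−0.059) or 4 (−0.022), or without WT replicate 1 (−0.0053) or 4 (−0.054), and 3.72% of its annotated exon bases are shared with Gpr152 on the opposite strand.

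Upstream regulators and other photoreceptor genes were measured beside the rod genes. Of 13 listed transcription factors 12 were measured, and 4 were called lower (33.3%) and none higher (edgeR), with a median of −0.18. Of all genes tested, 5.98% were called lower and 8.33% higher. Neurod1, a bHLH factor needed by photoreceptors, averaged 636 ± 63.3 CPM under the C3 KO label and 827 ± 40.02 CPM under the WT label (SD, n = 4 each, edgeR adjusted p = 0.000234). Prdm1, which favours the photoreceptor over the bipolar fate, had a log2 fold change of −0.36 and Rorb, a nuclear receptor of early rods, −0.23. For these 3 factors (25% of the 12) all C3 KO libraries lay below all WT libraries, as for 7.72% of all genes. Crx itself was at −0.22 with an edgeR adjusted p = 0.0151. Nrl, at −0.16 with an edgeR adjusted p = 0.0551, and the rod nuclear receptor Nr2e3, at −0.0017, were not called. Crx, Nrl and Nr2e3 were singled out after their values were seen.

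Of 32 other photoreceptor genes listed 30 were measured, and 6 were called lower (20%) and none higher (edgeR), with a median of −0.10. For 5 of the 30 (16.7%) all C3 KO libraries lay below all WT libraries, against 7.72% of all genes. Kcnv2, a potassium channel subunit of the inner segment, was at −0.39, Rd3, which restrains guanylate cyclase on its way to the outer segment, at −0.33, and Nxnl1, which encodes a photoreceptor trophic factor, at −0.46, and for these 3 the labels did not overlap. Of 14 measured cone genes 12 were positive, against 8074 of 15850 genes tested, with a median of 0.065 for the cone genes. None was called lower and 1 higher (edgeR), where 5.98% and 8.33% of all genes were. The gene called higher was Slc24a2, the cone exchanger, at 0.26 with an edgeR adjusted p = 0.0234. Pde6h had the largest fold change of the list, at 1.91 ± 0.68 (SE), and was not called (edgeR adjusted p = 0.123). It ran from 110 to 128 CPM under the C3 KO label. In WT replicates 1 to 4 it had 56.7, 8.67, 54.1 and 6.34 CPM, so the labels did not overlap. The difference between the rod and cone lists was not tested.

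Markers of several other cell types also differed between the labels. Of all genes tested, 5.98% were called lower and 8.33% higher by edgeR. A single call in a list of 10 to 15 genes lies close to those shares. A positive fold change was found for 8074 of the 15850 genes. All 18 pigment epithelium genes were positive and 14 were called higher, with a summed level of 336 to 364 CPM under the C3 KO label and 126 to 191 CPM under the WT label. Of 15 progenitor genes 7 were called lower and 1 higher, with sums of 1621 to 2001 CPM under the C3 KO label and 1823 to 2241 CPM under the WT label. The gene called higher was Ccnd1, a cyclin of dividing cells, which made up much of these sums, at 954 ± 85.4 CPM under the C3 KO label and 770 ± 93.1 CPM under the WT label (SD, n = 4 each). The progenitor average, computed as the rod average was, did not overlap, at −0.62 to −0.28 under the C3 KO label and −0.23 to 0.21 under the WT label. Of 11 ganglion cell genes 6 were called higher and none lower (edgeR), with sums of 2413 to 2814 CPM under the C3 KO label and 1919 to 2530 CPM under the WT label. All 5 red blood cell genes were called lower, with a median of −1.11 and sums of 18.1 to 23.2 CPM under the C3 KO label and 28.5 to 51.2 CPM under the WT label, although reads of the near-identical globin genes may be split between copies. All 12 microglia genes were positive and 3 were called higher, with a median of 0.28. Of 7 amacrine genes 6 were positive and 2 were called higher, with a median of 0.22. In the other lists, 4 of 15 bipolar genes were called lower and 2 higher, 3 of 12 Mueller glia genes lower and 1 higher, 1 of 7 horizontal cell genes lower, and 1 of 10 endothelial genes higher. None of these markers was at 0 reads in any library. The pigment epithelium average, computed as the rod average was, stood at 0.96, 1.11, 1.07 and 1.22 in C3 KO replicates 1 to 4, against 0.30, −0.065, 0.034 and −0.27 in WT replicates 1 to 4. The part of these cells in the rod result was not tested. Of the rod genes, Guca1a, Guca1b, Prph2 and Tulp1 lie on chromosome 17 with C3, and of these Prph2 and Tulp1 were called. The share of all chromosome 17 genes called was not counted, and a part of nearness to C3 was not tested.

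**Figure D5:**
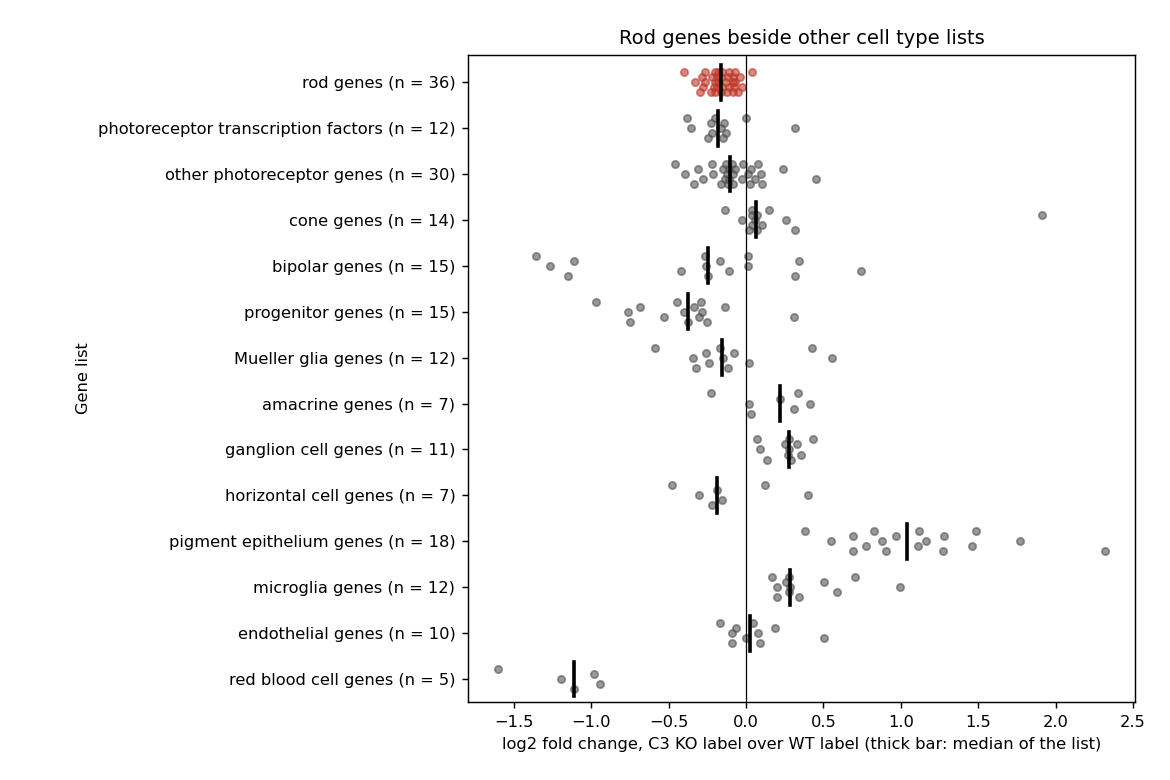
Log2 fold change of each gene, C3 KO label over WT label, in the rod list (red) and in 13 lists of other photoreceptor and cell type genes (grey), with the median of each list as a thick bar. The rod points lie between −0.40 and 0.038 with a median of −0.16, and the pigment epithelium points all lie above 0 with a median of 1.04.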

How the data were processed

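Retinal poly(A) RNA was sequenced from 4 libraries labelled C3 KO and 4 labelled WT with a directional kit, per the labels' protocols. The submitters' processing notes name STAR, HTSeq, mm9 and NCBIM37; whether strand was used in counting is not stated there. The authors deposited whole-number read counts per gene, 16503564 to 19608824 per library, without normalization. They also deposited log2 RPKM values; over 14977 genes with at least 10 reads in every library these fit the count plus 2 reads, with a constant per gene and library, within 0.022.

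Counts were tested in R 4.3.3 with edgeR 4.0.16 (filterByExpr, TMM, robust quasi-likelihood, no covariates), with Benjamini-Hochberg adjustment over all 15850 genes tested and a threshold of 0.05. The SE was taken from the fold change and its F statistic. DESeq2 1.42.0, limma 3.58.1 (voom, and trend on log2 RPKM) and sva 3.50.0 served as alternatives. The rod genes and all lists were chosen with earlier results of these data known. All rod genes are accounted for, and for other lists up to 3 genes with the smallest p were eligible to be named. Crx, Nrl, Nr2e3 and Ccnd1 were named outside that rule, with their values known. Promoters come from RefSeq (GRCm38.p6), a build other than that of the counts, and exon overlaps and chromosomes from GENCODE M21 and RefSeq, so positions are given for promoter windows only. Replicate numbers did not pair the libraries.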

Additional observations from a re-analysis of the deposited data

Results flagged for a closer look

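Within each label, the highest and the lowest library were compared with the rest by Dixon's criterion, which chance passes in about 1 of 20 groups. Of 72 groups over the 36 rod genes 1 was set apart. Rdh12 in C3 KO replicate 1 stood at 61.5 CPM, where the other libraries of that label held 74.6 to 76.6 CPM. Without that library Rdh12 was still called lower, with a log2 fold change of −0.26.

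Outside the rod genes, Ttr was at 36.2 CPM in WT replicate 1 against 25.6 to 26.0 CPM in the other WT libraries, and Alas2 at 2.23 CPM in WT replicate 4 against 2.76 to 2.85 CPM. Y-linked genes set WT replicate 3 apart, with Eif2s3y at 81.3 CPM, Kdm5d at 59.8 CPM and Uty at 49.6 CPM, where the other WT libraries held at most 5.18, 4.72 and 2.85 CPM.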

How the results depend on the processing

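The median log2 fold change of the rod genes stayed below 0 under all 20 alternatives, between −0.21 and −0.12, and no rod gene was called higher under any of them. The number called lower was 14 by DESeq2, 2 on log2(RPKM + 1), 2 on log2(RPKM + 0.1), 0 with Y-linked expression and 1 with 1 surrogate variable as a covariate, and 2 to 18 when 1 library was left out, against 9. Over all genes, 2269 were called, against 1509 and 1502 on the 2 RPKM scales, 530 with Y-linked expression, 453 with the surrogate variable and 1305 to 2543 without 1 library. The covariates correlated with the label at 0.732 and 0.678 in absolute value. With the replicate block 16 rod genes were called lower. Same-numbered libraries deviated together with correlations of −0.060, 0.088, 0.0038 and −0.056, so the numbers are not taken to pair them, and not every library correlated best with its own number. Of 720 fold changes of single rod genes under alternatives, 598 kept direction and side of the threshold, 73 lost the call, 33 gained one and 16 changed sign, in genes that were not called. The sign changed with Y-linked expression for Gngt1 (0.0064), Pde6a (0.032), Gucy2f (0.0082), Fscn2 (0.063) and Cabp4 (−0.20). It changed with the surrogate variable for Pde6a (0.018), Prom1 (0.037) and Slc24a1 (0.029). Without 1 library Slc24a1 ran from −0.19 to 0.093, Pde6a from −0.17 to 0.0093 and Cabp4 from −0.059 to 0.15. The cause was not tested. Guca1b, Slc24a1 and Cabp4 had the fewest reads of the rod genes (640, 1011 and 1076) and the largest SEs (0.198, 0.171 and 0.156); the part of depth in these was not tested.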
